A study of Mus musculus with 12 samples.

Results

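The genes described here are the mouse proteasome subunits with their assembly chaperones and activators, taken as every symbol that begins with Psma, Psmb, Psmc, Psmd or Psme followed by a number and that had a summed raw count of at least 120 over all 12 libraries. This rule kept 43 of 44 matching symbols among 23362 genes. Psmb11, the thymus-specific catalytic subunit, fell outside it with 19 counts, and Psma8, with 1134 counts, and Psma3, with 6008, were the members nearest above it. Psmc3ip matched the rule by its name and is a meiotic recombination factor, not a subunit. All 43 passed the filter on low counts in every comparison. The members were chosen by name and abundance, not by any difference between groups.

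The libraries came from granulocyte-macrophage progenitors (GMP), the marrow precursors of granulocytes and monocytes, from C57BL/6 mice. GMP WT and GMP KO were wild-type and Xbp1-deficient progenitors lysed straight after sorting, and GATA2-GMP WT and GATA2-GMP KO were wild-type and Xbp1-deficient progenitors that had been sorted, transduced with GATA2, sorted again and grown for 48 h. Each group had 3 libraries of polyadenylated RNA, and the study looked for transcripts that depend on XBP1, which drives genes of the unfolded protein response. GMP libraries were made with a TruSeq kit and GATA2-GMP libraries with a SMARTer low-input kit before TruSeq, so that stage, transduction, culture and kit cannot be told apart. Neither the Xbp1 allele nor the animal behind each library is given, so that p-values measure only the spread between these libraries.

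The proteasome degrades proteins tagged with ubiquitin. Its core particle is a stack of rings of alpha (Psma) and beta (Psmb) subunits, of which Psmb5, Psmb6 and Psmb7 cut peptide bonds. Interferons induce Psmb8, Psmb9 and Psmb10, which take the places of Psmb5, Psmb6 and Psmb7 in the immunoproteasome, a form known for making peptides for MHC class I. The regulatory particle on the core's ends has a base, with the Psmc ATPases, which unfold substrates, and a lid, which removes ubiquitin. The Psme proteins are other activators that dock on the core.

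XBP1 binds elements of promoters of the unfolded protein response, and NFE2L1 is the factor known for inducing the subunits together through antioxidant response elements, so promoter letters were searched for both. RefSeq promoters (build GRCm38.p6, from 250 bases before to 50 after the start) were matched for 36 of the 43 members. Psma8, Psmb1, Psmb2, Psmb7, Psmc3, Psmd3 and Psmd7 are named only. The stretches below were chosen for the matches they hold. These are the 1 match to TGACGTG, an XBP1-type element, and a pair of antioxidant-type matches in catalytic subunits. The others are an ETS-type match in an ATPase and an interferon-gamma type match in an immunoproteasome subunit. Capitals mark the match.
Psma1 (chr7:114276210-114276336, minus strand), TGACGTG: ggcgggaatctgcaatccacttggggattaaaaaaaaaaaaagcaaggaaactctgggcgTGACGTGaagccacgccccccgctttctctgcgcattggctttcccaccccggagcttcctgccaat
Psmb5 (chr14:54617996-54618102, minus strand), TGACNNNGC: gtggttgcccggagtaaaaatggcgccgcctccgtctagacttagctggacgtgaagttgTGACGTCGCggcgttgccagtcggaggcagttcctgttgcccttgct
Psmb6 (chr11:70525288-70525356, plus strand), TGACNNNGC: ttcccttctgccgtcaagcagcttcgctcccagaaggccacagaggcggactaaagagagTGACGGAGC
Psmc1 (chr12:100110114-100110201, plus strand), CCGGAAG read on the other strand: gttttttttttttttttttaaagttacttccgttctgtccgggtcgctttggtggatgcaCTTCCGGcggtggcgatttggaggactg
Psmb8 (chr17:34198038-34198166, plus strand), TTCNNNGAA: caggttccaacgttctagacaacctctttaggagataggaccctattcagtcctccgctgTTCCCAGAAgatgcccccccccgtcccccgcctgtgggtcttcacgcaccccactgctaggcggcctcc

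Of 16 motifs searched on both strands, those given here bear on the members' known regulators. Member shares count genes with a match in any of their promoters (36 genes with 39 promoters). The shares of all count single promoters, so the units differ. TGACGTG, the element of the unfolded protein response, was in 1 member promoter (2.78%, Psma1) and in 2.01% of all 32851 RefSeq promoters. Its shorter core GACGTG was in 3 (8.33%: Psma1, Psma7 and Psmb5) against 6.38% of all, and ACGTG in 8 (22.2%) against 19.6%. The longer endoplasmic reticulum stress element, CCAAT and CCACG with 9 bases of any kind between them, was in 0 member promoters and in 0.119% of all. The antioxidant core TGACNNNGC was in 6 (16.7%: Psmb5, Psmb6, Psmc6, Psmd9, Psmd12 and Psme4) against 12.4% of all. TGACGTG and the antioxidant core can overlap. The ETS-type CCGGAAG was in 13 (36.1%), among them Psma6, Psmc1, Psmc2 and Psmc6, against 8.86% of all. GAAA repeated after 2 bases of any kind, the interferon-stimulated type, was in 4 (11.1%: Psmb3, Psmd4, Psmd9 and Psme1) against 3.44%, and TTCNNNGAA in 2 (Psmb8 and Psmd2) against 8.30%. A match is only a run of letters in this window, and the data hold no binding measurement.

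Libraries held 8219366 to 33640911 gene counts. Xbp1 ranged from 131 to 153 CPM in GMP WT and from 55.9 to 89.8 CPM in GMP KO, and from 197 to 381 CPM in GATA2-GMP WT and from 99.9 to 128 CPM in GATA2-GMP KO, so that no KO library reached a WT library of its stage. CPM are counts relative to library size after TMM scaling of all 12 libraries together. The summed level of 8 GMP markers ran from 26245 to 28721 CPM in GMP WT and from 6416 to 9145 CPM in GATA2-GMP WT. Single GMP markers moved both ways, as given below. The sum of 8 eosinophil markers ran from 48.4 to 243 CPM in GMP WT and from 135451 to 206755 CPM in GATA2-GMP WT. In GMP KO and GATA2-GMP KO the eosinophil markers summed to 297 to 612 CPM and 55839 to 67904 CPM. Of 11 lymphoid markers 6 were under 1 CPM in every library, and 2 of these (Cd2 and Pax5) were at 0. In these bulk libraries fewer cells of a type and less RNA per cell cannot be told apart.

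In sorted GMP, loss of Xbp1 left no proteasome transcript past the test, and the estimates were narrow. Of the 43 members 0 were called higher and 0 lower (edgeR, adjusted p under 0.05), while 3.17% of the 12002 genes tested were called (0.658% higher, 2.52% lower). DESeq2 also called 0 members, and 489 of 11860 genes. A fit with the replicate number as a block called 0 members and 8.03% of all genes. At an unadjusted p under 0.05 edgeR gave 1 member higher (Psmd3) and 1 lower (Psme4), while 14.5% of all genes tested had such a p. The member nearest the threshold was Psme4, the large activator that docks without ATP, with a log2 fold change (KO minus WT) of -0.15 ± 0.05 (SE) and an adjusted p of 0.224. Its libraries held 115, 118 and 117 CPM in GMP WT and 112, 109 and 98.7 CPM in GMP KO, which do not overlap.

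The 95% confidence intervals of 42 of the 43 members lay within 0.5 of 0 on the log2 scale, and those of 36 within 0.25. Psma8, a testis alpha subunit present at 4.43 to 7.26 CPM in GMP, was the exception, with an upper bound of 0.59. The median member difference was -0.04, against 0.006 over all genes tested, and 13 of 43 were above 0. WT and KO libraries did not overlap for 2 members with KO higher (Psmd3 and Psme3) and for 2 with KO lower (Psmc1 and Psme4), where 11.3% and 8.09% of all genes tested did so.

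**Figure D1:**
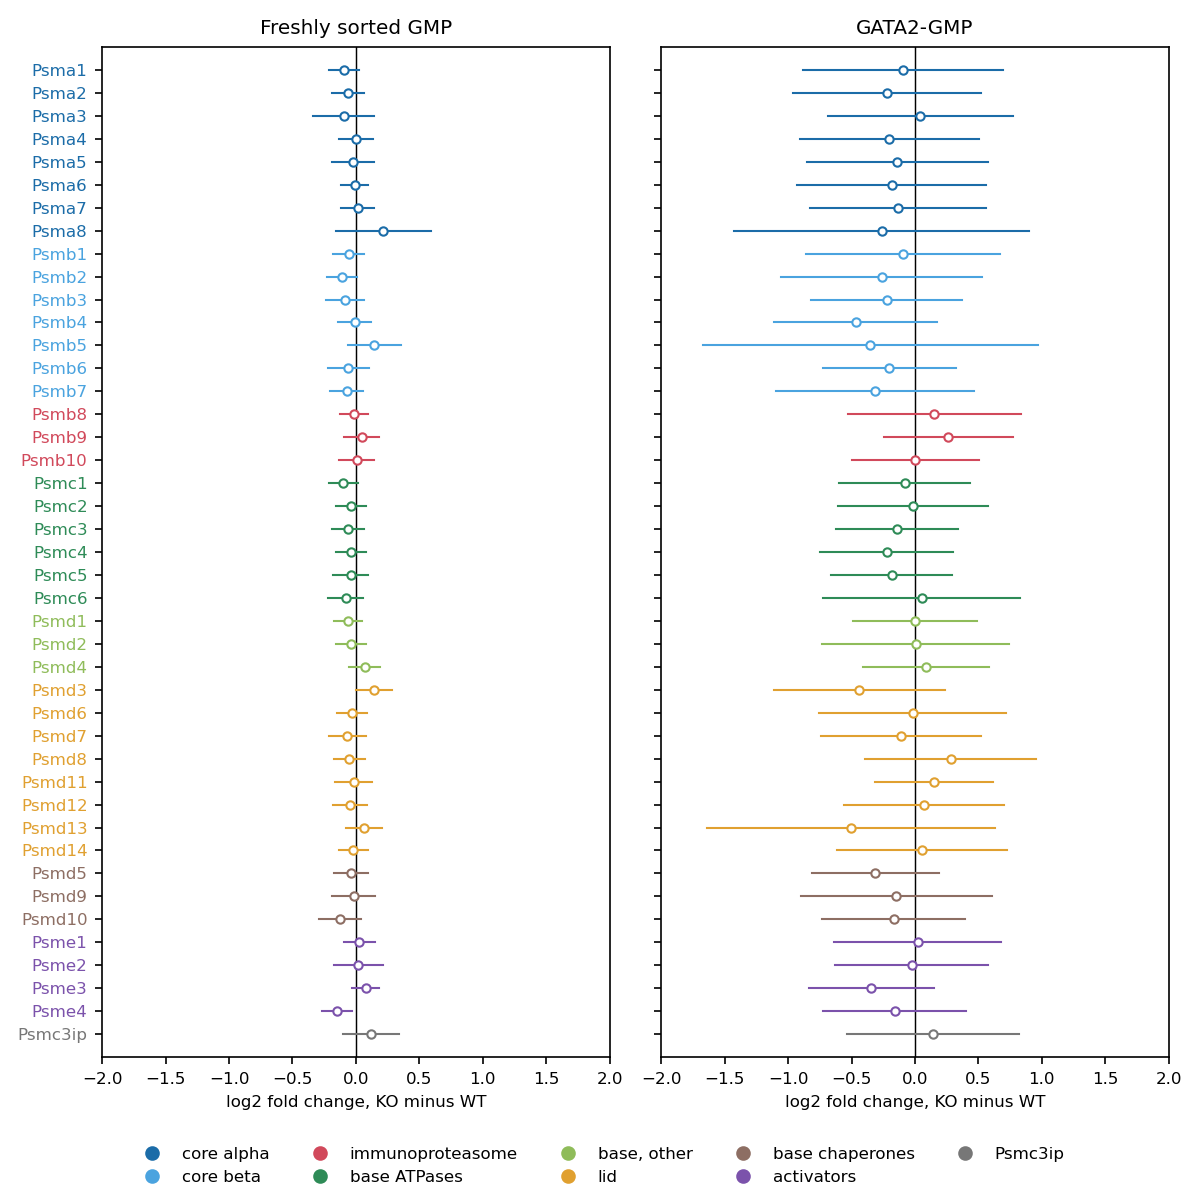
Log2 fold change of each of the 43 members, Xbp1-deficient minus wild type, in GMP (left) and GATA2-GMP (right), with 95% confidence intervals as lines. Open points did not pass the adjusted p of 0.05, and all points are open. The median SE was 0.061 in GMP and 0.30 in GATA2-GMP.

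The catalytic subunits and their interferon-induced counterparts held their levels in GMP KO to within a narrow range. Psmb8 was at 222, 217 and 204 CPM in GMP WT and 211, 223 and 208 CPM in GMP KO (log2 fold change -0.02 ± 0.05). Psmb9 was at 67.3, 74.1 and 64.4 CPM in GMP WT and 72.6, 74.6 and 67.1 CPM in GMP KO (0.05 ± 0.06). Psmb10 was at 95.1, 94.5 and 84.0 CPM in GMP WT and 92.4, 98.6 and 85.8 CPM in GMP KO (0.005 ± 0.06). The genotypes overlapped for all 3. Psmb5 gave 0.14 ± 0.10, Psmb6 -0.06 ± 0.07 and Psmb7 -0.07 ± 0.06, none past the test.

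Of the 8 MHC class I presentation genes listed beside the immunoproteasome, 2 fell in GMP KO. Tapbp, which bridges MHC class I and the peptide transporter, ranged from 93.5 to 130 CPM in GMP WT and from 52.4 to 59.6 CPM in GMP KO, a log2 fold change of -0.97 (edgeR adjusted p 0.0023). B2m, the light chain of MHC class I, ranged from 778 to 882 CPM in GMP WT and from 573 to 658 CPM in GMP KO, a change of -0.44 (adjusted p 0.00099). The other 6, among them the transporter subunits Tap1 (0.12) and Tap2 (0.06) and the transactivator Nlrc5 (0.14), did not pass. Among 21 tested partners of the proteasome, 5 regulators, 6 genes of ubiquitin supply and 23 interferon-induced genes 0 passed in edgeR or in DESeq2. At an unadjusted p under 0.05 there were 1 higher and 1 lower partner, 1 lower regulator and 3 higher interferon-induced genes. Of all genes tested 14.5% had such a p. The replicate block called 2 partners lower and 2 interferon-induced genes higher, and 8.03% of all genes.

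In GATA2-GMP, 0 of 43 members were called in either direction between the genotypes, in a comparison with far wider errors that called 0.376% of 11699 genes (0.103% higher, 0.274% lower). DESeq2 called 0 members and 504 of 12876 genes. In edgeR 0 members had an unadjusted p under 0.05, against 14.9% of all genes tested. The median SE of the members was 0.30, and their confidence bounds ran from -1.67 to 0.97 (both Psmb5). Only 1 of the 43 intervals lay within 0.5 of 0, so that for the other members a difference of 0.5 in at least 1 direction was not excluded. The median member difference was -0.14, against -0.005 over all genes tested. It ran from -0.27 without GATA2-GMP KO 3 to 0.06 without GATA2-GMP WT 2 on leaving out 1 library, and was 0.04 with library size alone, so its sign was not stable.

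Psmb4, a beta subunit without catalytic activity, had the lowest adjusted p, 0.487. It stood at 200, 192 and 110 CPM in GATA2-GMP WT, against 104, 104 and 154 CPM in GATA2-GMP KO, a log2 fold change of -0.47 ± 0.29. The lid subunit Psmd13 had the largest difference, -0.51 ± 0.50. Its levels were 64.6, 123 and 284 CPM in GATA2-GMP WT, against 132, 138 and 61.2 CPM in GATA2-GMP KO, so that both the highest and the second lowest library were wild type. WT and KO libraries overlapped for all 43 members, while they stood apart for 10.2% (KO higher) and 12.3% (KO lower) of all genes tested.

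Within GATA2-GMP the subunits followed the library more than the genotype. GATA2-GMP WT 1, WT 2 and KO 3 were the 3 highest libraries for 29 of the 43 members (67.4%), and for 17.9% of all genes tested. Psma6, an alpha subunit, read 1112 and 1300 CPM in WT 1 and WT 2 and 1201 CPM in KO 3, but 640 CPM in WT 3 and 740 and 742 CPM in KO 1 and KO 2. Psmb1, a beta subunit, read 787 and 851 CPM in WT 1 and WT 2, 878 CPM in KO 3, 414 CPM in WT 3, and 513 and 531 CPM in KO 1 and KO 2. The opposite triple, WT 3, KO 1 and KO 2, was highest for 4 members (9.30%) and for 18.0% of all genes.

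Psmd2, the large scaffold of the base, was 1 of those 4. It read 327, 254 and 275 CPM in WT 3, KO 1 and KO 2 and 173, 176 and 149 CPM in WT 1, WT 2 and KO 3. The groups' spread followed: the median coefficient of variation of the members was 29.7% in GATA2-GMP WT and 24.1% in GATA2-GMP KO (25.5% and 20.3% over all genes), against 5.28% and 6.43% in GMP WT and GMP KO (6.51% and 7.14%). GMP had an order of its own over this smaller spread, with WT 1, WT 2 and KO 2 highest for 27 members (62.8%, against 10.9% of all genes). No batch, date or animal is given to set beside these library orders, and their source was not tested.

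The genotype difference did not itself differ detectably between the stages. The interaction called 0 of 43 members and 0.0859% of 12803 genes (0.0312% higher, 0.0547% lower). At an unadjusted p under 0.05 it gave 0 members higher and 1 lower, the lid subunit Psmd3 (-0.60, edgeR adjusted p 0.317). Of all genes tested 14.9% had such a p. DESeq2 called 0 members and 716 of 12480 genes. The intervals of the members ran from -2.01 (Psmb5) to 1.01 (Psmd8), which limits what a count of 0 says here.

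Between the stages most subunits of the core and all ATPases of the base stood higher in GATA2-GMP, by 1.51 to 3.20 on the log2 scale where they passed the test. The immunoproteasome, Psme3 and Psmd3 did not share that shift. Psma8, Psmb4, Psmb5, Psmd2, Psmd5, Psmd7 and Psmd13 did not pass as higher in either genotype. In wild type 30 members rose and 3 fell (Psmd3, Psme3 and Psmb9), in a comparison that called 70.5% of 12251 genes (34.1% higher, 36.4% lower). In Xbp1-deficient cells 31 rose and 5 fell (the same 3, Psma8 and Psmb4), where 78.6% of 12438 genes were called (38.6% higher, 40.0% lower). The member medians were 1.57 and 1.50 on the log2 scale, against -0.09 and -0.05 over all genes. These comparisons share their libraries with those of genotype but none with each other. All 30 members that rose in wild type were among the 31 that rose in the KO, which added Psmd4, the ubiquitin receptor. Libraries of the stages did not overlap for 30 members higher and 5 lower in wild type (35.8% and 41.4% of all genes) and for 31 and 7 in the KO (39.6% and 42.7%). Markers of other cells moved with stage as well. All 7 mast cell and basophil markers tested rose in both genotypes, and the sum of the 8 listed went from 102 to 126 CPM in GMP WT to between 3485 and 11154 CPM in GATA2-GMP WT, and from 90.9 to 108 CPM to between 5603 and 11868 CPM in the KO. Dendritic cell and monocyte markers summed to 321 to 392 CPM and 501 to 1055 CPM in wild type, and to 320 to 460 CPM and 1000 to 1060 CPM in the KO. Among the 11 tested, 6 rose and 3 fell in wild type, and 8 rose and 3 fell in the KO. Among the 8 GMP markers, 6 fell and 2 rose in each genotype. Of 3 lymphoid markers tested 3 rose in wild type and 1 in the KO, Il7r, which was at most 0.0357 CPM in GMP and 5.42 to 37.9 CPM in GATA2-GMP. The part of these cells in the stage differences was not tested.

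The counts depend on the scaling, which is uncertain where so many genes differ. With library size alone and no TMM, the median of all genes moved from -0.09 to -0.93 in wild type and from -0.05 to -0.73 in the KO. The members then gave 22 higher and 9 lower in wild type and 26 higher and 8 lower in the KO, with medians of 0.72 and 0.81. Of all genes, 2501 of 12251 were then higher and 6816 lower in wild type, and 3273 and 6681 of 12438 in the KO. With the trend on transcript length removed, the members gave 27 and 8 in wild type and 28 and 10 in the KO. All genes gave 4714 and 4075 in wild type and 5229 and 4601 in the KO under that setting. The KO count of 5 lower became 3 without GMP KO 1 or without GMP KO 2, and 9 without GATA2-GMP KO 3. Over 14 settings in each genotype, 22 members rose in every one in wild type and 26 in the KO, including Psma1 to Psma7, Psmb1, Psmb2, Psmb3, Psmb6, Psmb7, Psmc1 to Psmc6, Psmd10, Psmd11, Psmd14 and Psme2. Psmd3 and Psme3 fell in all 14 in both.

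**Figure D2:**
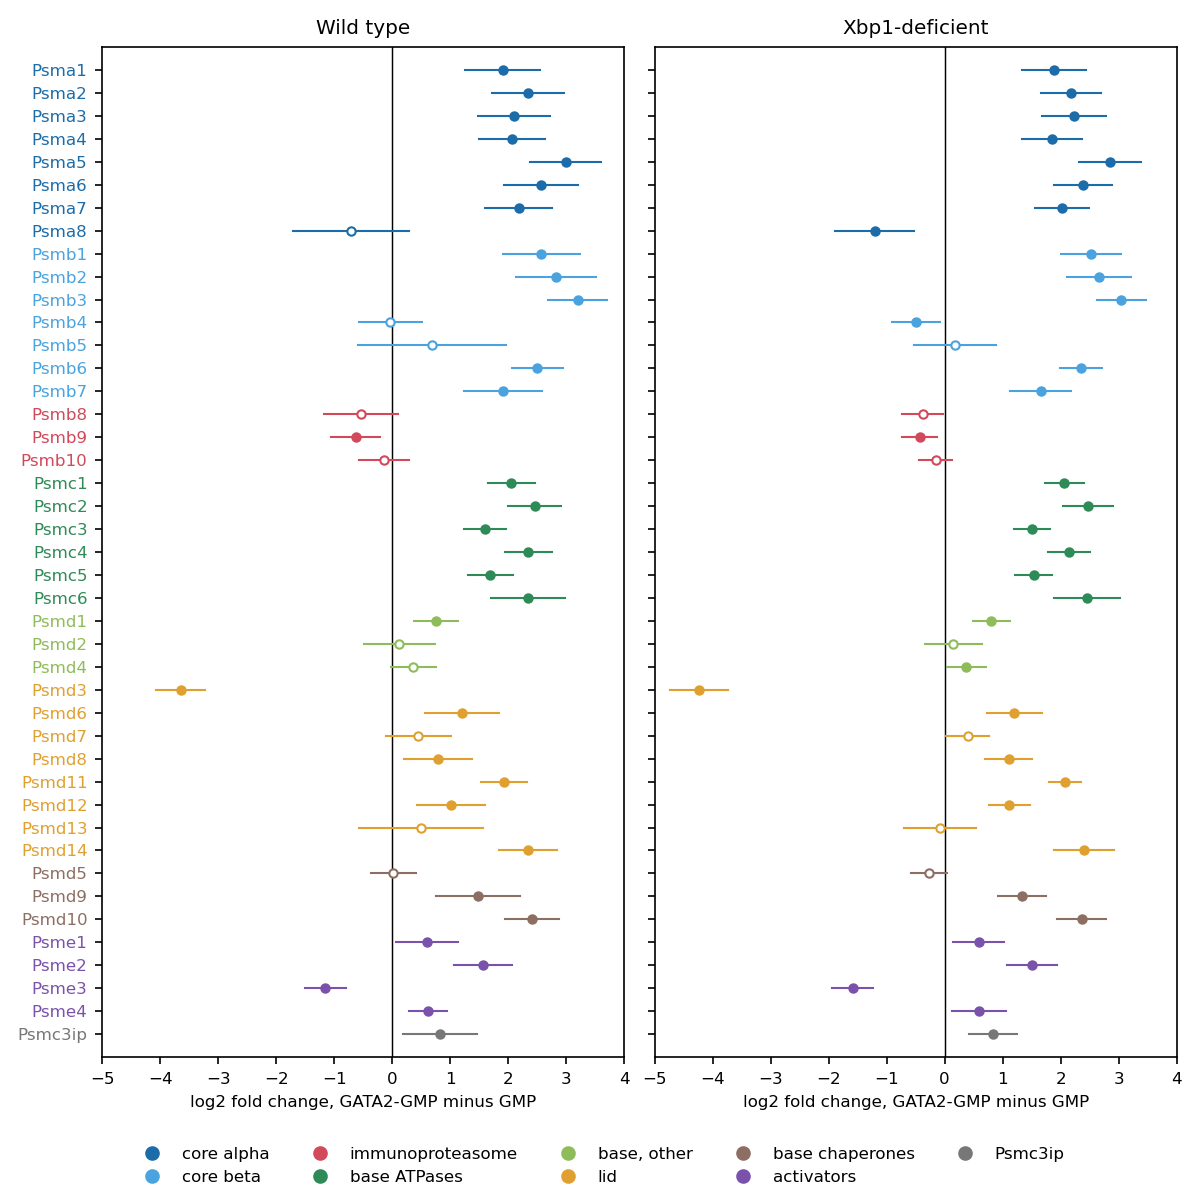
Log2 fold change of each member, GATA2-GMP minus GMP, in wild type (left) and Xbp1-deficient cells (right), with 95% confidence intervals as lines. Filled points passed the adjusted p of 0.05. The 6 base ATPases lie between 1.51 and 2.47, the 3 immunoproteasome subunits below 0 and Psmd3 at -3.64 and -4.24.

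Of the 8 alpha subunits, which gate the core, 7 rose in either genotype, with a median of 2.15 in wild type and 2.10 in the KO. Psma5 stood at 23.5, 22.5 and 21.6 CPM in GMP WT against 197, 222 and 115 CPM in GATA2-GMP WT, with 21.7, 22.6 and 23.3 CPM in GMP KO against 130, 130 and 224 CPM in GATA2-GMP KO. The stages do not overlap, and the log2 fold changes were 2.99 ± 0.26 and 2.85 ± 0.23 (edgeR adjusted p 3.6e-05 and 6.0e-06). Psma6 went from 178, 174 and 166 CPM in GMP WT and 178, 178 and 163 CPM in GMP KO to the values given above, changes of 2.57 ± 0.28 and 2.38 ± 0.22. Psma8 was the exception. It stood at 4.26, 4.14 and 1.40 CPM in GATA2-GMP WT (-0.70, adjusted p 0.177) and 3.03, 1.73 and 3.38 CPM in GATA2-GMP KO, where it fell by 1.20 (adjusted p 0.0049); the difference between those changes did not pass the interaction test.

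Of the 7 constitutive beta subunits 5 rose in both genotypes, with medians of 2.51 and 2.35. Psmb3, a structural beta subunit, had the largest rise of all members. It read 28.8, 28.1 and 27.6 CPM in GMP WT against 279, 305 and 188 CPM in GATA2-GMP WT, a change of 3.20 ± 0.22 (adjusted p 1.3e-05), with 25.7, 28.8 and 25.8 CPM in GMP KO against 179, 209 and 273 CPM in GATA2-GMP KO, a change of 3.05 ± 0.19. Psmb2 read 121, 120 and 113 CPM in GMP WT against 973, 1034 and 492 CPM in GATA2-GMP WT (2.83 ± 0.30), with 112, 117 and 102 CPM in GMP KO against 543, 569 and 966 CPM in GATA2-GMP KO (2.66 ± 0.24). Psmb1 read 121, 118 and 108 CPM in GMP WT and 112, 119 and 105 CPM in GMP KO, and rose by 2.57 ± 0.28 and 2.52 ± 0.23 to the values above. The lowest GATA2-GMP library of each lay over 3 times above its highest GMP library.

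Psmb4 did not follow the other structural beta subunits. In GMP WT it held 179, 175 and 161 CPM, within the range it had in GATA2-GMP WT (-0.03 ± 0.24, adjusted p 0.914), and with library size alone (-0.88) or the length trend removed (-0.96) it passed as lower. In the KO it fell by 0.50 (adjusted p 0.0303) from 168, 188 and 160 CPM to 104, 104 and 154 CPM. That call was lost without GMP KO 1 or 2 or GATA2-GMP KO 1 or 2, and without GATA2-GMP WT 3 the wild-type value was 0.29 and passed. Psmb5 did not pass either, at 27.3, 33.2 and 29.8 CPM in GMP WT against 36.0, 93.4 and 15.3 CPM in GATA2-GMP WT (0.69 ± 0.55). Its GATA2-GMP libraries lie on both sides of its GMP libraries, and without GATA2-GMP WT 3 the change was 1.21 and passed. In the KO Psmb5 gave 0.18 ± 0.31, which became -0.35 and passed the test without GATA2-GMP KO 3.

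**Figure D3:**
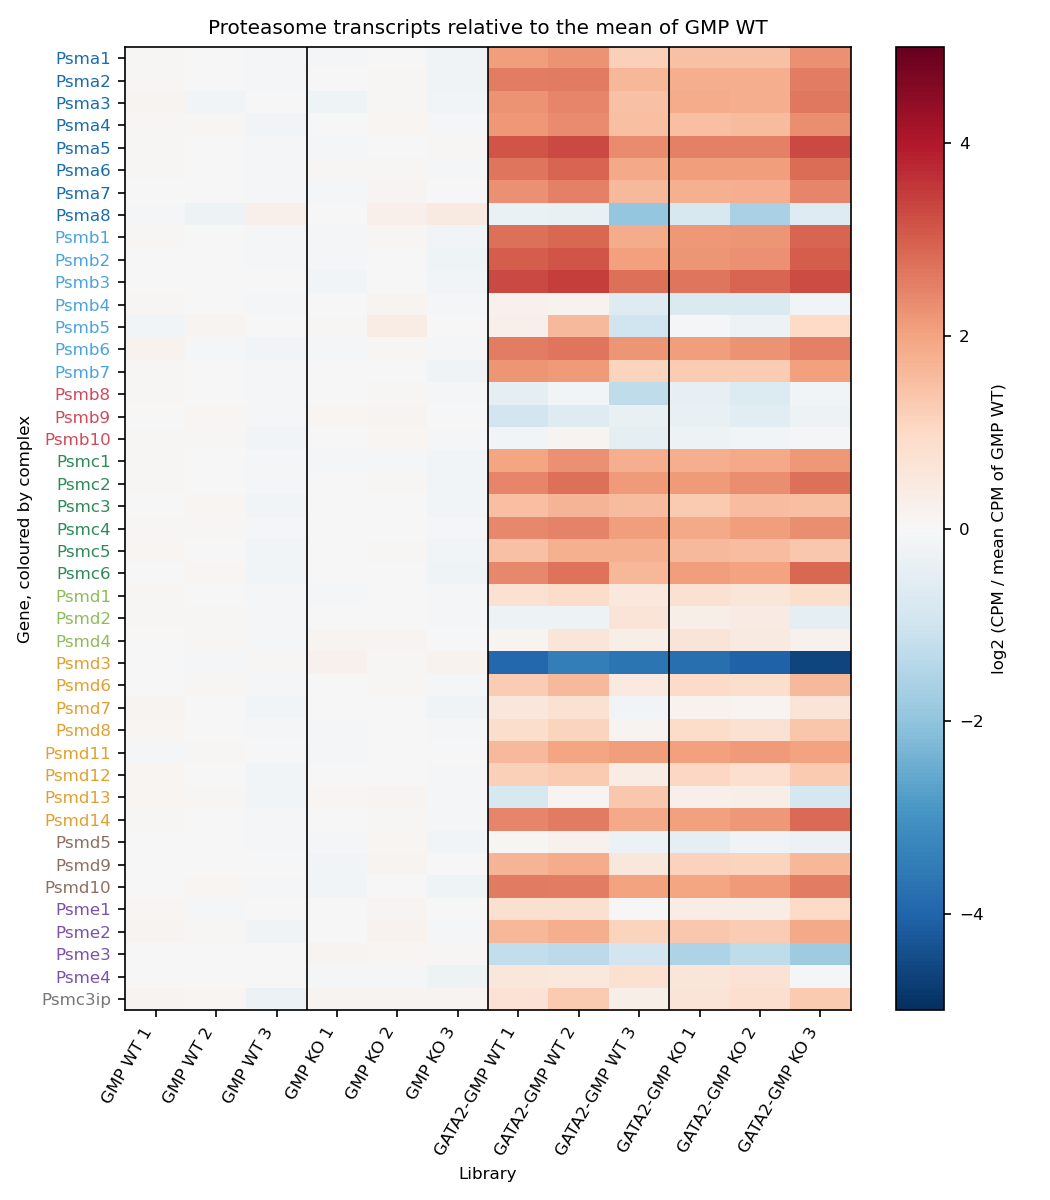
Log2 of each member's CPM over its mean CPM in GMP WT, for 43 genes (rows, coloured by complex) and 12 libraries (columns). The 6 GMP libraries are near 0 throughout, the ATPase rows and the core rows other than Psma8, Psmb4 and Psmb5 are raised in all 6 GATA2-GMP libraries, and the Psmd3 row is lowered in all 6.

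The immunoproteasome did not share the rise of the core. In wild type 0 of its 3 subunits rose and Psmb9 fell, and the same held in the KO. With library size alone, and with the length trend removed, all 3 were lower and passed in both genotypes. Library size alone, however, called 6816 of all 12251 genes lower in wild type and 6681 of 12438 in the KO. Removal of the length trend called 4075 and 4601 lower. Psmb9 (chr17:34318933-34324709, build mm9, minus strand, in the MHC region) read 36.1, 43.4 and 53.0 CPM in GATA2-GMP WT, against 53.0, 47.5 and 58.0 CPM in GATA2-GMP KO, all below the lowest GMP library at 64.4 CPM. Its log2 fold changes were -0.63 ± 0.18 (adjusted p 0.0149) and -0.43 ± 0.13 (adjusted p 0.0156). The call was lost without GMP WT 2 in wild type and without GMP KO 1 or GMP KO 2 in the KO, and with the GC trend removed the values were -0.19 and 0.071. Psmb8, its neighbour (chr17:34334666-34338399), read 156, 198 and 88.7 CPM in GATA2-GMP WT, against 162, 135 and 194 CPM in GATA2-GMP KO, under every GMP library, but its changes of -0.53 ± 0.28 and -0.38 ± 0.16 missed the threshold (adjusted p 0.117 and 0.0509). Without GATA2-GMP KO 3 the KO changes of Psmb8 (-0.55) and Psmb10 (-0.23) passed.

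Psmb10 (chr8:108459628-108462292) read 82.2, 99.0 and 65.9 CPM in GATA2-GMP WT, against 76.9, 82.1 and 88.3 CPM in GATA2-GMP KO, overlapping GMP in both genotypes (-0.14 ± 0.18 and -0.15 ± 0.13, adjusted p 0.514 and 0.286). With the GC trend removed it was higher, at 0.59 and 0.65, past the test. The direction of this complex by itself therefore depends on the GC trend. Psmb6, the subunit Psmb9 replaces, read 102, 89.0 and 83.3 CPM in GMP WT against 544, 579 and 427 CPM in GATA2-GMP WT (2.51 ± 0.19), with 84.9, 95.7 and 84.7 CPM in GMP KO against 388, 439 and 518 CPM in GATA2-GMP KO (2.35 ± 0.16). Psmb7, the subunit Psmb10 replaces, read 110, 104 and 98.2 CPM in GMP WT against 481, 460 and 225 CPM in GATA2-GMP WT (1.91 ± 0.29), with 102, 106 and 90.8 CPM and 252, 250 and 433 CPM in the KO (1.66 ± 0.23).

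**Figure D4:**
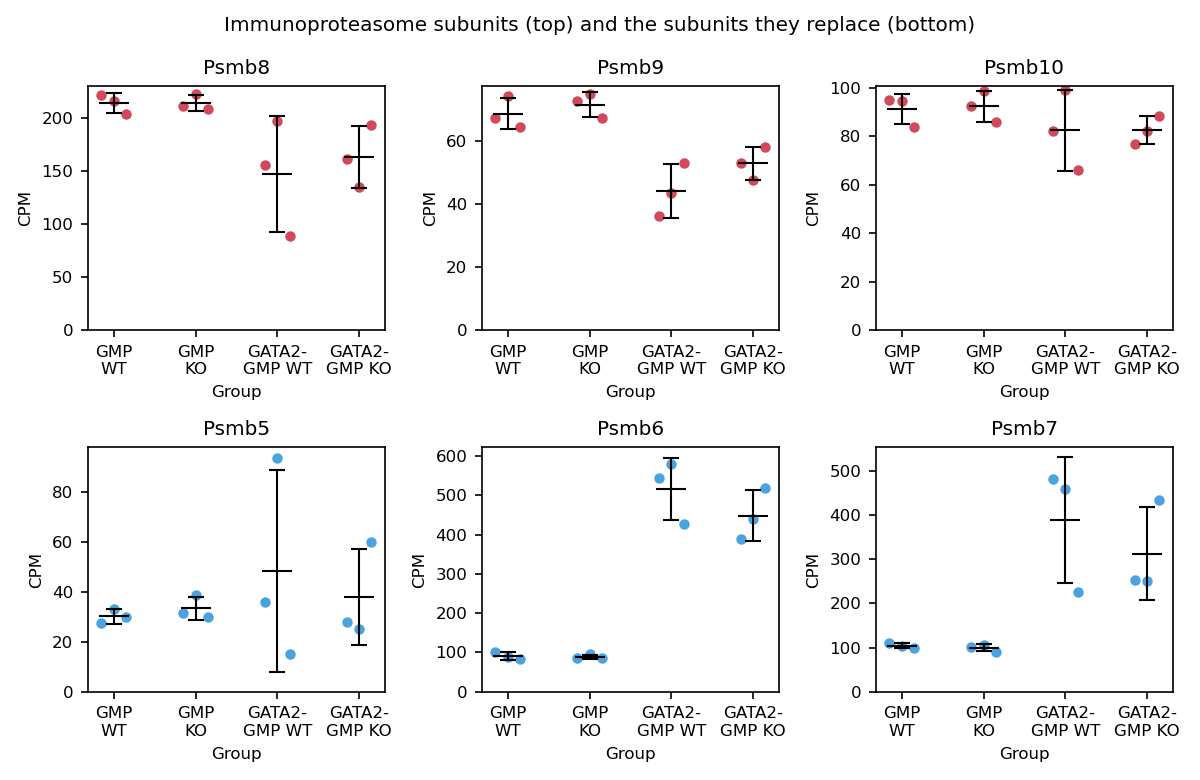
CPM per library of the 3 immunoproteasome subunits (top) and the constitutive subunit each replaces (bottom) in the 4 groups, with bars for mean and SD (n = 3). Psmb6 and Psmb7 are higher in every GATA2-GMP library than in any GMP library, and Psmb9 is lower.

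Per kilobase of transcript, the ratio of Psmb9 to Psmb6 was 0.389 to 0.492 in GMP WT and 0.0391 to 0.0734 in GATA2-GMP WT, and 0.461 to 0.505 in GMP KO and 0.0639 to 0.0807 in GATA2-GMP KO. The ratio of Psmb10 to Psmb7 was 0.781 to 0.831 and 0.156 to 0.267 in wild type, and 0.828 to 0.864 and 0.186 to 0.299 in the KO. The stages do not overlap in either ratio. On the log2 scale Psmb9 moved -3.13 relative to Psmb6 in wild type, with a range of -3.40 to -2.36 over the other settings, and Psmb10 moved -2.05 relative to Psmb7, with a range of -2.19 to -1.32. In the KO these were -2.78 (-2.89 to -2.11) and -1.81 (-1.95 to -0.91). The transcripts of Psmb9 and Psmb6 have 55.3% and 55.8% GC and lengths of 1351 and 798 bases. Those of Psmb10 and Psmb7 have 56.5% and 48.7% GC and lengths of 1270 and 1160 bases. With the GC trend removed, Psmb10 moved -1.32 relative to Psmb7 in wild type and -0.91 in the KO. The part of GC content and length in these shifts was not tested. The ratio of Psmb8 to Psmb5 was 3.49 to 4.36 in GMP WT and 1.13 to 3.11 in GATA2-GMP WT, and 3.09 to 3.74 and 1.73 to 3.08 in the KO, where the stages all but touch. On the log2 scale Psmb8 moved -1.22 relative to Psmb5 in wild type, with a range of -1.45 to -0.17 over the other settings. In the KO it moved -0.56 (-0.81 to 0.33), and the sign turned with the length trend removed. This pair rests on Psmb5, whose transcript has near-identical copies. Psmb6 and Psmb7 have such copies over a smaller share of their transcripts.

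Genes of peptide presentation, which use the immunoproteasome's products, gave 1 higher and 5 lower of 8 in wild type and 1 higher and 7 lower in the KO, where 34.1% of all genes tested were higher and 36.4% lower in wild type and 38.6% and 40.0% in the KO. Tap2, a transporter subunit encoded beside Psmb8, ranged from 151 to 171 CPM in GMP WT and from 3.17 to 5.84 CPM in GATA2-GMP WT (-5.18, edgeR adjusted p 4.2e-06). Nlrc5 ranged from 49.5 to 56.1 CPM and from 0.251 to 3.61 CPM (-4.71), and Tap1 from 112 to 129 CPM and from 21.1 to 43.0 CPM (-1.90). B2m rose, from 778 to 882 CPM to a range of 919 to 2489 CPM (1.11, adjusted p 0.0191). Among 23 interferon-induced genes tested, which include Irf1, a known inducer of the immunoproteasome, 7 were higher and 9 lower in wild type, near those shares, and 8 and 5 in the KO. Gbp3, a guanylate-binding protein, fell by 5.14 and 4.75 and Ifit2 by 3.98 and 2.48, while Usp18, which removes ISG15 from proteins, rose by 2.53 and 4.38. Irf1 gave -0.29 and 0.25, neither past the test.

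All 6 ATPases of the base, the motor of the regulatory particle, rose in both genotypes, between 1.60 and 2.46 in wild type and between 1.51 and 2.47 in the KO. Psmc2 read 108, 105 and 100.3 CPM in GMP WT against 559, 695 and 459 CPM in GATA2-GMP WT (2.46 ± 0.20, adjusted p 2.4e-05), with 102, 109 and 95.4 CPM in GMP KO against 461, 523 and 707 CPM in GATA2-GMP KO (2.47 ± 0.19). Psmc6 read 131, 136 and 118 CPM in GMP WT against 685, 849 and 408 CPM in GATA2-GMP WT (2.34 ± 0.28), with 126, 131 and 111 CPM in GMP KO against 544, 519 and 949 CPM in GATA2-GMP KO (2.46 ± 0.25). The smallest rise was that of Psmc3 in wild type, 1.60 ± 0.16, which also had the smallest spread among GATA2-GMP WT libraries, at 511, 589 and 534 CPM (coefficient of variation 7.28%).

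The other base subunits, which hold ubiquitin receptors and scaffolds, had smaller differences. Psmd1, a scaffold that docks a ubiquitin receptor, rose by 0.76 and 0.81 (adjusted p 0.0033 and 0.00052). Psmd4 gave 0.37 ± 0.17 in wild type (adjusted p 0.0796) and rose by 0.37 ± 0.15 in the KO (adjusted p 0.0447), a call lost without any 1 library other than GATA2-GMP KO 3. Without GATA2-GMP WT 1 or 3 Psmd4 passed in wild type too. Psmd2 gave 0.13 ± 0.26 and 0.15 ± 0.22, not past the test, though without GATA2-GMP KO 3 the KO value of 0.35 passed. With library size alone 0 of these 3 rose in either genotype. Of the 3 chaperones that assemble the base, Psmd10 (2.41 and 2.36) and Psmd9 (1.48 and 1.33) rose, though Psmd9 did not pass in wild type with library size alone. Psmd5 did not pass (0.02 and -0.27), but without GATA2-GMP WT 3 (0.24) and without GATA2-GMP KO 3 (-0.31) it did, in opposite directions.

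Of the 8 lid subunits 5 rose in both genotypes, 2 did not pass and Psmd3 fell. With library size alone 2 of the 8 were higher in wild type (median 0.05, against 0.90 with TMM), the calls of Psmd6, Psmd12 and Psmd8 being lost, and 5 in the KO. Psmd14, the enzyme that cuts ubiquitin chains off the substrate, read 120, 124 and 115 CPM in GMP KO against 494, 539 and 858 CPM in GATA2-GMP KO, a rise of 2.40 ± 0.22. In wild type it read 125, 121 and 115 CPM and 651, 726 and 447 CPM, a rise of 2.34 ± 0.22. Neither pair of groups overlaps. Psmd11 rose by 1.93 and 2.07, Psmd6 by 1.21 and 1.20, Psmd12 by 1.01 and 1.12, and Psmd8 by 0.78 and 1.10. The wild-type call of Psmd8 was lost without any 1 library other than GATA2-GMP WT 3. Psmd7, the partner of Psmd14, gave 0.45 and 0.40 and Psmd13 0.50 and -0.08, none past the test. Leaving out GATA2-GMP WT 3, GATA2-GMP KO 2 or GATA2-GMP KO 3 let Psmd7 pass (0.77, 0.49 and 0.20), and leaving out GATA2-GMP WT 1 or GATA2-GMP KO 3 let Psmd13 pass (0.91 and 0.18).

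Psmd3, a structural lid subunit (chr11:98543868-98557293, build mm9), had the largest change of all members and the opposite sign. It read 149, 141 and 153 CPM in GMP WT and 174, 154 and 166 CPM in GMP KO. In GATA2-GMP it read 9.75, 13.6 and 11.9 CPM in WT and 10.9, 8.96 and 6.08 CPM in KO. Every GATA2-GMP library was thus at least 10 times below every GMP library, with log2 fold changes of -3.64 ± 0.18 and -4.24 ± 0.22 (edgeR adjusted p 4.1e-06 and 5.2e-07). Its transcript has 58.3% GC, the highest of the members, and with the GC trend removed the changes were -2.35 and -2.83. Of its 31-base stretches 0 occurred in another place of the genome. Against Psmd12, another lid subunit, its ratio per kilobase was 1.38 to 1.66 in GMP WT and 0.0430 to 0.0918 in GATA2-GMP WT.

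Among the activators Psme3, which forms a nuclear activator ring that works without ubiquitin, fell. It read 249, 247 and 245 CPM in GMP WT against 105, 100.3 and 127 CPM in GATA2-GMP WT, with 270, 261 and 257 CPM in GMP KO against 84.6, 103 and 72.9 CPM in GATA2-GMP KO. The stages stood apart in both genotypes, with changes of -1.15 ± 0.16 and -1.59 ± 0.16 (adjusted p 0.00029 and 1.8e-05). Psme2, a subunit of the interferon-induced activator, read 24.0, 22.6 and 19.3 CPM in GMP WT against 68.9, 77.4 and 48.0 CPM in GATA2-GMP WT, with 21.4, 24.5 and 21.3 CPM against 56.4, 52.5 and 81.3 CPM in the KO. It rose by 1.57 ± 0.22 and 1.50 ± 0.19.

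Its partner Psme1 read 152, 138 and 141 CPM in GMP WT against 254, 254 and 145 CPM in GATA2-GMP WT, where WT 3 lay within the GMP range, and 146, 156 and 142 CPM and 185, 187 and 289 CPM in the KO. The rises of 0.60 ± 0.23 (adjusted p 0.0457) and 0.58 ± 0.19 (0.0198) turned to -0.42 and -0.37, past the test, with the length trend removed, and to -0.25 and -0.12 with library size alone. The call was also lost without any 1 of GMP WT 1, 2 and 3 and GATA2-GMP WT 1 and 2 in wild type, and without any 1 of GMP KO 1, 2 and 3 in the KO. Psme4 read 174, 166 and 197 CPM in GATA2-GMP WT, against 178, 192 and 110 CPM in GATA2-GMP KO. It rose by 0.62 ± 0.14 and 0.59 ± 0.21, which with library size alone became -0.21 and -0.064, not past the test, and in the KO the call was lost without any 1 library other than GATA2-GMP KO 3.

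Psmc3ip, the recombination factor caught by its name, rose by 0.83 in both genotypes, so that without it 29 of 42 rose in wild type and 30 of 42 in the KO. Its wild-type call was lost without any 1 of GMP WT 1, 2 and 3 and GATA2-GMP WT 2. With library size alone its values were -0.01 and 0.13, and with the length trend removed 0.04 and 0.08, none past the test.

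Across the members the stage difference went down with GC content and with length, as it did over all genes. Across genes, Spearman's rho between the wild-type fold change and transcript GC was -0.33 over the 43 members and -0.28 over 11206 genes, and with length -0.38 and -0.30. In the KO the values were -0.38 and -0.32 for GC and -0.31 and -0.27 for length. Members had a median transcript length of 1512 bases, against 2977.5 over the genes tested. Genes are not independent replicates, and the kit changes with the stage. With the GC trend removed 32 members were higher and 2 lower in wild type, where 4410 of all 12251 genes were higher and 4096 lower. The core alpha, core beta and ATPase medians were then 1.87, 2.53 and 2.05. With the length trend removed these were 1.28, 1.08 and 1.64.

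**Figure D5:**
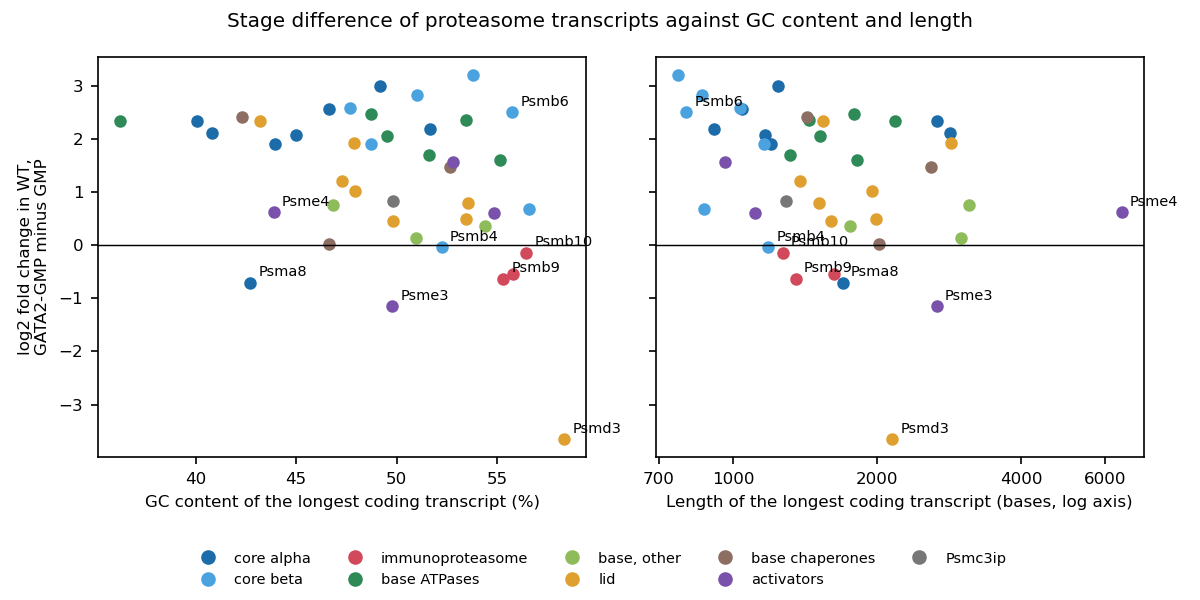
Log2 fold change in wild type, GATA2-GMP minus GMP, of each member against the GC content (left) and length (right, log axis) of its longest coding transcript. Points are coloured by complex. Psmd3 has the highest GC content. Psmb6 (55.8% GC, 798 bases) and Psmb9 (55.3% GC, 1351 bases) lie 3.13 apart on the log2 scale. The part of GC content and length in these values was not tested.

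Some levels are uncertain because the transcripts have near-identical copies elsewhere in the genome, and reads with more than 1 alignment were not counted to a gene. More than 10% of the 31-base stretches of 14 members also occurred elsewhere, led by Psmb3 (79.2%), Psmb5 (78.5%), Psma5 (67.2%), Psme2 (66.2%) and Psma4 (61.6%). Psmb7 (21.9%) and Psmb6 (16.0%), used in the ratios above, were also among the 14. For 19 members, among them Psma1, Psma7, Psmb4, Psmb8, Psmb9, Psmb10, Psmd3 and Psme4, the share was 0. Psma3 (40.2%) read only 10.2 to 12.1 CPM in GMP WT.

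Per kilobase, Psma7 (198 CPM per kb ± 8.19, SD, n = 3), Psma1 (181 ± 8.62) and Psma6 (166 ± 6.17) led the members in GMP WT, and Psmb8 stood sixth in order of level at 132 ± 5.68. In GATA2-GMP WT Psma6 (976 ± 326), Psmb2 (969 ± 346), Psma7 (897 ± 267) and Psma1 (674 ± 234) led, within each other's spread. Psmb8 then held rank 27 at 90.5 ± 33.8 and Psmd3 moved from rank 21 at 68.8 ± 2.93 to rank 42 at 5.46 ± 0.889. All members together took 0.567 to 0.627% of gene counts in GMP and 0.765 to 1.15% in GATA2-GMP.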

How the data were processed

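Each library's table, as deposited by the authors, lists a read count per gene, whole numbers of unequal sum and so not normalized. The submitters' processing notes name build mm9, SAMtools 0.1.14, STAR 2.3.0, DESeq and HTSeq, with roles, strand and annotation not given in the sources used here. The 5 counter rows (55.8 to 66.5% of records) and 4 genes with ambiguous spreadsheet dates were left out.

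The tests used edgeR 4.0.16 under R 4.3.3 (filterByExpr, TMM, quasi-likelihood, Benjamini-Hochberg over all genes tested, threshold 0.05), genotype within each stage, stage within each genotype, and their interaction over 12 libraries. SE is the fold change over the root of its F statistic. The fits were tested on simulated data. Alternatives were DESeq2 1.42.0, other scalings and filters, a replicate block, leaving out libraries and, added after seeing the data, library size alone and removal of GC or length trends. One CPM stood for at least 11.2 reads of a TMM-scaled library. GC content, length and coordinates came from GENCODE on NCBIM37 (mm9), for the longest coding transcript.

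Same-numbered GMP libraries deviated together (r across genes 0.318, 0.249 and 0.192, the pairing coming from the data), so a paired fit was also run. It called 8.03% of genes and 0 members. Named genes were the immunoproteasome, its constitutive counterparts, the activators, up to 8 called members with the largest change in each comparison, and up to 4 called genes of each pathway list. Members and lists were chosen with earlier results of these data known, and Psmb4, Psmd13, Psma8, Psmd2 and Irf1 were singled out after their values were seen.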

Additional observations from a re-analysis of the deposited data

How the results depend on the processing

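Of 1175 single-gene values under other settings, 1122 kept their side of the threshold without a called value changing sign (80 of these changed sign with neither value past it), 27 lost and 15 gained a call, and 11 reversed. Those were, in wild type, Psmb10 (0.59, GC trend removed), Psme1 (-0.25 with library size alone, -0.42 with the length trend removed) and Psme4 (-0.21, library size alone). In the KO they were Psmb10 (0.65) and Psmb9 (0.071) with the GC trend removed, Psmb5 (-1.13) and Psme1 (-0.37) with the length trend removed, Psme1 (-0.12) and Psme4 (-0.064) with library size alone, and Psmb5 (-0.35) without GATA2-GMP KO 3, where leaving out 1 library gave -0.35 to 0.40. The number of members lower between stages moved to 9 with library size alone and 8 with the length trend removed in wild type, to 8 and 10 in the KO, and to between 3 and 9 on leaving out 1 library in the KO. Members called higher ran from 27 to 35 and from 28 to 34 on leaving out 1 library. Both genotype comparisons and the interaction called 0 members under every setting run. The cause of each move was not tested.

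The replicate block changed no member call in GMP. Same-numbered libraries gave r of -0.16, -0.31 and -0.49 in GATA2-GMP and between -0.051 and 0.045 between stages, so no pairing was assumed there. With the block, 29 members were higher and 4 lower in wild type, 30 and 5 in the KO, and 0 were called between genotypes. Of all genes, the block called 3955 of 12251 higher and 4451 lower in wild type, and 4618 and 4897 of 12438 in the KO. Between genotypes it called 964 of 12002 genes in GMP and 3 of 11699 in GATA2-GMP. What depth limits was not tested.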

Other observations

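Between the stages 70.5% of all genes tested were called in wild type (34.1% higher, 36.4% lower) and 78.6% in the KO (38.6% higher, 40.0% lower), and the counts below are to be read against those shares. Of 6 ubiquitin supply genes 4 rose and 1 fell in either genotype. Ubb, a polyubiquitin gene, ranged from 117 to 146 CPM in GMP WT and from 1157 to 1592 CPM in GATA2-GMP WT, a log2 fold change of 3.44 (edgeR adjusted p 7.8e-06). Uba1, the main ubiquitin-activating enzyme, ranged from 560 to 591 CPM and from 230 to 348 CPM, a change of -1.06 (adjusted p 0.0018), while Uba6, an alternative activating enzyme, rose by 1.07. Of 21 tested partners 8 rose and 6 fell in wild type, and 8 rose and 9 fell in the KO, near the shares of all genes. Shfm1, a small lid subunit whose symbol lies outside the naming rule, rose by 2.91, and the core maturation factor Pomp by 2.07. The shuttle receptors, which carry ubiquitinated proteins to the proteasome, included Rad23b (-2.54 and -2.99 in wild type and KO) and Ubqln4 (-1.84 and -2.07), both past the test.

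Of the 5 regulators, Nfe2l2 (2.13 and 2.21) and Ngly1 (1.71 and 1.25), which removes sugars from NFE2L1, rose in both genotypes. Nfe2l1 (-2.21 and -1.27), its protease Ddi2 (-3.48 and -3.35) and the segregase Vcp (-0.58 and -0.85) fell in both. Nfe2l1 ranged from 25.8 to 34.1 CPM in GATA2-GMP WT and from 51.8 to 70.6 CPM in GATA2-GMP KO. The groups do not overlap, but the difference of 1.04 missed the threshold (edgeR adjusted p 0.0974). In the same comparison Ubqln2, a shuttle receptor, ranged from 25.2 to 44.5 CPM in WT and from 10.1 to 12.5 CPM in KO (-1.54, adjusted p 0.0631). Akirin2, which brings the proteasome into the nucleus, ranged from 28.1 to 35.7 CPM and from 16.7 to 18.4 CPM (-0.85, adjusted p 0.129). DESeq2 called these 3 genes, and edgeR called none of the 3. Tapbp, which fell in GMP KO, ranged from 105 to 150 CPM in GATA2-GMP WT and from 36.9 to 50.2 CPM in GATA2-GMP KO, a fall of 1.54 past the test (adjusted p 0.0425) that was lost without any 1 library other than GATA2-GMP WT 3.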
